A study of Mus musculus with 23 samples.

Results

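The cytochrome P450 genes were taken from the mouse array as every probe whose symbol in the platform annotation is Cyp followed by a digit, with Cyp51 left out. The choice gave 81 probes for 65 genes, of 24048 probes for 14776 genes in all. Of these genes, 12 had 2 probes and 2, Cyp2a5 and Cyp3a13, had 3 probes.

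Cytochromes P450 are haem enzymes of the endoplasmic reticulum or the mitochondrion that insert an oxygen atom into small lipophilic molecules, with electrons passed on by a reductase. Families with low numbers oxidise drugs, plant compounds and fatty acids, and many of their genes answer in the liver to nuclear receptors that sense such molecules. Other families carry single steps of bile acid, steroid hormone, vitamin D and retinoic acid metabolism.

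The mice were inbred male BALB/c animals of 12 weeks. For 6 weeks the drink of OPP mice was oil palm phenolics, a water-soluble extract of palm fruit liquor (1500 ppm as gallic acid equivalents), and that of control mice distilled water. Both had a normal diet. There were 3 OPP and 4 control livers, 4 OPP and 4 control spleens and 4 OPP and 4 control hearts, taken after an overnight fast, with 1 array for each RNA sample. Cages held mice of a single group, so cage and OPP cannot be told apart, and according to the methods the samples with the best RNA were put on arrays and outlying samples then dropped.

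A level here is a log2 intensity after removal of background and normalisation within the organ, and a log2 change is OPP minus control with its standard error. A probe entered the test of an organ if at least 3 arrays of either group detected it, that is with a detection p below 0.01. The arrays detected 5349 to 9785 probes each, with the fewest on OPP liver 3, whose median raw intensity of 405.3 stood above the 174.2 to 207.5 of the other livers. All 8 cardiomyocyte marker genes on the array were detected in hearts and all 13 hepatocyte marker genes in livers. In spleens, probes for B and T cells and macrophages were detected, but not Cr2 and Pax5 of the B cell genes or Cd5l and Clec4f of the macrophage genes. Spleens also detected all 5 genes on the array of the exocrine pancreas, a tissue that lies against the spleen, and 4 of their probes entered the test in livers. Of the hepatocyte marker probes, 6 entered the test in spleens and 6 in hearts. In whole organs, fewer cells of a type and less RNA per cell cannot be told apart. The number of arrays limits the precision.

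Control livers 3 and 4 stood apart from the other livers in genes outside the P450 family. Serum amyloid Saa1, an acute phase protein, had 12.71, 14.57 and 10.10 in OPP livers, against 11.20, 9.76, 14.96 and 15.25 in control livers. Over 22 tested probes of acute phase and metallothionein genes, a list drawn up after their values were seen, the summed linear intensity ran from 326296 to 534875 in OPP livers and from 300202 to 650688 in control livers, where it was 361467, 300202, 631668 and 650688. Control livers 3 and 4 therefore gave the highest sums and OPP liver 2 came next. The 5 tested neutrophil marker probes were all lower in OPP livers, with summed intensities from 1148 to 24738 in OPP livers and from 1348 to 64511 in control livers, where controls 3 and 4 were again the highest and Mmp8 alone of the 14 marker genes was detected in no liver. The main liver results are given below with and without these livers.

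In the 3 organs together, 48 P450 probes of 41 genes passed the detection filter somewhere and 33 probes passed nowhere. The liver had 44 tested probes of 37 genes, the heart 11 and the spleen 8. Genes whose probes passed in no organ included Cyp1a1, the classic target of the aryl hydrocarbon receptor, Cyp26a1 of retinoic acid breakdown, Cyp39a1 and Cyp46a1 of oxysterol metabolism, Cyp2r1 and Cyp24a1 of vitamin D metabolism, and Cyp11a1, Cyp11b2 and Cyp21a1 of steroid hormone synthesis. For those genes no change was detectable here, which does not show that there was none.

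Several members are young copies of each other, and the start regions of a pair that varied strongly between livers show how near they can be. Cyp2b9 and Cyp2b13, both known as higher in female mouse liver, have start windows of 300 bases (250 before and 50 after the start) in the RefSeq annotation of GRCm38.p6, at chr7:26173159-26173458 and chr7:26061245-26061544, both on the plus strand. They agreed at 298 of 300 bases, and capitals mark the 2 differences, T48C and C104T, counted from the left end with the Cyp2b9 base first.
Cyp2b9: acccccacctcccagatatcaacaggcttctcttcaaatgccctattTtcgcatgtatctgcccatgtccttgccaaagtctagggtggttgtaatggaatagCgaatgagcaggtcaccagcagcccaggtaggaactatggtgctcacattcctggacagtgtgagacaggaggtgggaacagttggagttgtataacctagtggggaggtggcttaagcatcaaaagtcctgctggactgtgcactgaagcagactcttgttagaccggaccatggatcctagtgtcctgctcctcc
Cyp2b13: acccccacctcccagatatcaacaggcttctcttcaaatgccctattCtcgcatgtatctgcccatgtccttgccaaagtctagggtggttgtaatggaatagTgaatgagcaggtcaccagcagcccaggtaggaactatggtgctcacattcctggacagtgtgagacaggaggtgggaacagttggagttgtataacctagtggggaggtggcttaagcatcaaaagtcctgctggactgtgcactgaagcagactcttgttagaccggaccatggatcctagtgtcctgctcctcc
Cyp2a4, a steroid hydroxylase, and Cyp2a5, the coumarin hydroxylase, form a like pair at chr7:26306942-26307241 and chr7:26835089-26835388, again on the plus strand. Set against each other with a shift of 1 base, they agreed at 294 of 299 bases, and capitals mark the 5 differences, of which the first from the left is C19T and the last T270C, with positions and first bases from Cyp2a4.
Cyp2a4: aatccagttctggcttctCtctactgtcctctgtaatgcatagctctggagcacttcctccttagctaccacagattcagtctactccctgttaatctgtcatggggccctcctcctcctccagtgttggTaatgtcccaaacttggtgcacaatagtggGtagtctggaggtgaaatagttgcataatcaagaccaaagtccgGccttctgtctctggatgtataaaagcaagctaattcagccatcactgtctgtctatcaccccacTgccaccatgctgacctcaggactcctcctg
Cyp2a5: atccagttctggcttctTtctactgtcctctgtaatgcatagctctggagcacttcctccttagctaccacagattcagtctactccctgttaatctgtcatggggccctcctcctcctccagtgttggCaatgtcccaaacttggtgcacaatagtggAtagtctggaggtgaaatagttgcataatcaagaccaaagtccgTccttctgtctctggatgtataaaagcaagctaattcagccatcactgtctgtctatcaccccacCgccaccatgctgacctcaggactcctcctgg
All 4 windows hold the letters AGGTCA on one strand or the other, as did 26.3% of the 57 windows found for 50 of the 65 P450 genes and 16.3% of 32851 windows of all genes. Whether the probes of such copies separate them was not tested, so their values are uncertain as those of single genes.

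The first question was which P450 genes differ between OPP and control livers. The cut-off was the study's, an unadjusted p under 0.01, but the p came from limma and not from the study's error model. At it 3 of the 44 tested probes were called in the liver and all 3 were higher in OPP livers. That is a share of 6.82%, beside 2.92% of the 6434 probes tested (2.13% higher and 0.793% lower). These were a probe each of Cyp2d26, Cyp27a1 and Cyp2c54, with log2 changes of 0.62, 0.63 and 0.96. After the Benjamini-Hochberg adjustment in limma no probe of the organ passed 0.05, and the smallest adjusted p of a P450 probe was 0.287. All 3 genes were named by the study from these same samples and are not independent evidence. At an unadjusted p under 0.05 there were 8 P450 probes, all higher, beside 11.2% of all probes (6.37% higher).

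The members leaned towards higher levels without moving as a block. Of the 44 probes 28 were higher in OPP livers (63.6%), beside 45.4% of all tested probes, and the median log2 change was 0.05, against -0.03 over all probes. The groups did not overlap at 6 P450 probes (13.6%), all higher, beside 12.4% of all probes (6.53% higher). Without control livers 3 and 4, 24 of the 44 probes were higher and 18 had changed their sign. In that fit 1 P450 probe, of Cyp2d26, had an unadjusted p under 0.01, beside 2.21% of all probes, a like share. The median log2 change was then 0.14, against -0.05 over all probes, and the share of all probes that were higher is not given. In 1 fit of all 23 arrays, whose spread is pooled over the organs, 11 P450 probes were called, 9 of them higher, beside 11.6% of all probes. In that limma fit 8 P450 probes passed an adjusted p of 0.05. The share of all probes that passed it is not given, so the 8 are not taken as particular to P450 genes. The 8 further calls were Cyp1a2, both Cyp2a12 probes, Cyp2c50, Cyp3a11 and Cyp4a12a, all higher, and Cyp7a1 and Cyp17a1, both lower.

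**Figure D1:**
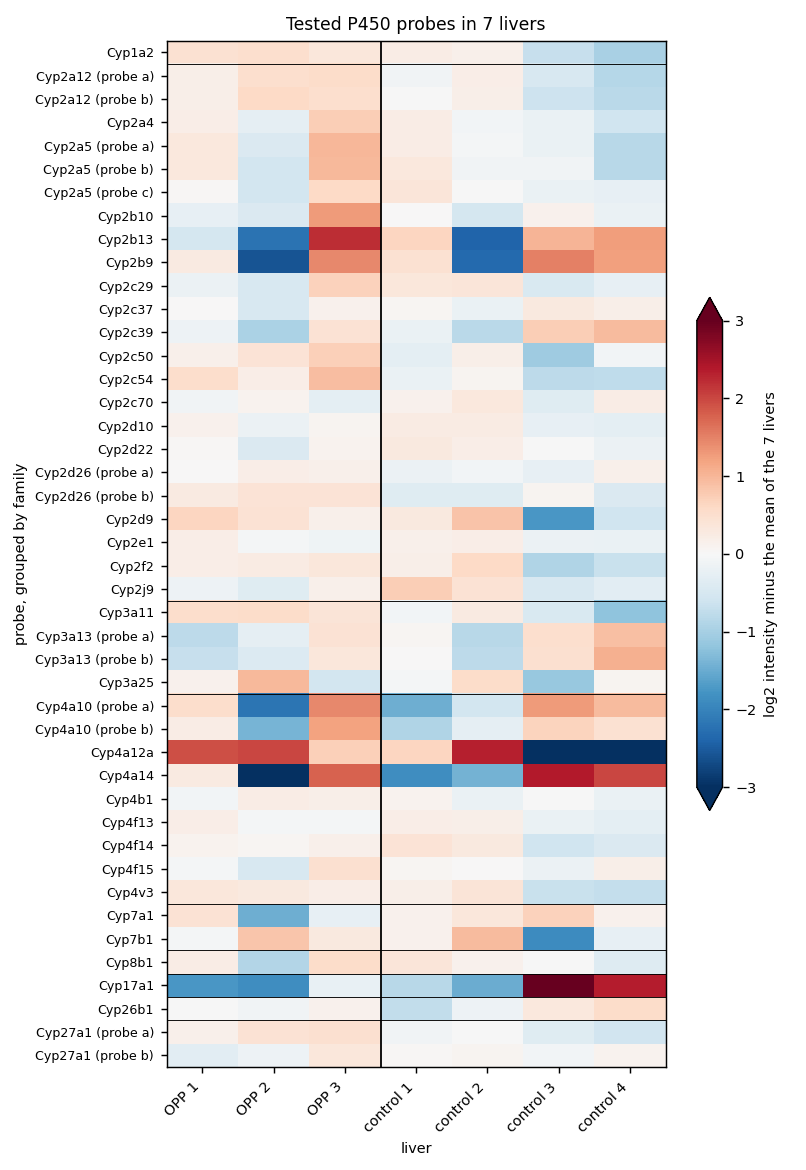
Each row is a tested P450 probe and each column a liver, OPP to the left; colour is the log2 intensity minus the probe's mean over 7 livers, cut at 3 either way, and letters mark probes of 1 gene in order of identifier. Cyp4a12a and Cyp17a1 stand out in opposite directions in control livers 3 and 4. Cyp2b9 and Cyp2b13 are low in OPP liver 2 and in control liver 2, and Cyp4a14 is lowest in OPP liver 2.

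Cyp2d26 was the member with the smallest adjusted p. Its probe b (scl46912.2.1_27-S) had 12.00, 12.14 and 12.14 in OPP livers, against 11.38, 11.37, 11.82 and 11.31 in control livers. All OPP livers were above all controls, and the log2 change was 0.62 ± 0.15 (limma, adjusted p = 0.287, two-sided exact permutation p = 0.0571, where 3 against 4 samples allow none below 0.0286). Probe a of the same gene (scl076279.3_16-S) had 12.74, 12.95 and 12.89 in OPP livers, against 12.57, 12.66, 12.49 and 12.88 in control livers. There the groups overlapped, since control liver 4 lay within the OPP values, and the change was 0.21 ± 0.13 (adjusted p = 0.590 in limma). With 1 liver left out at a time the call at probe b held in 6 of 7 fits, lost without OPP liver 2, and its change ran from 0.58 to 0.74. Without control livers 3 and 4 the changes were 0.72 at probe b and 0.24 at probe a.

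Cyp27a1, the mitochondrial sterol hydroxylase of the alternative bile acid route, gave different answers at its probes. Probe a (scl000950.1_13-S) had 9.99, 10.27 and 10.33 in OPP livers, against 9.73, 9.82, 9.47 and 9.26 in control livers, with no overlap. Its log2 change was 0.63 ± 0.17 (limma, adjusted p = 0.292). Probe b (scl17789.7.1_75-S) had 12.37, 12.52 and 13.01 in OPP livers, against 12.71, 12.75, 12.60 and 12.80 in control livers. OPP livers 1 and 2 lay below every control and OPP liver 3 above them all, and the change was -0.08 ± 0.16 (adjusted p = 0.872 in limma). Without control livers 3 and 4 the change at probe a was 0.43 and not called. Leaving out OPP liver 2, OPP liver 3, control liver 3 or control liver 4 alone also ended the call, over changes from 0.53 to 0.73 for the 7 livers in turn.

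Cyp2c54, an epoxygenase of polyunsaturated fatty acids, showed the largest change among the 3 called probes. It had 9.82, 9.48 and 10.21 in OPP livers, against 9.10, 9.37, 8.50 and 8.53 in control livers, so that the lowest OPP liver lay just above the highest control. The log2 change was 0.96 ± 0.26, a fold of 1.94 (limma, adjusted p = 0.292). Controls 3 and 4 were the lowest livers, and without them the change was 0.59 and not called. Leaving out OPP liver 1, OPP liver 3, control liver 3 or control liver 4 alone also ended the call, with changes from 0.77 to 1.14 over the 7 livers.

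Cyp1a2, Cyp2a12 and Cyp3a11 did not reach an unadjusted p under 0.01 in limma. The study's error model called them higher at its own equivalent cut-off, and they are described because the study chose them on these samples. For Cyp3a11 the study also ran real-time PCR on the same RNA, and reported a change comparable in direction and size to its arrays. Cyp3a11, the main drug-oxidising P450 of mouse liver and a target of the pregnane X receptor, had 13.24, 13.26 and 13.11 in OPP livers, against 12.62, 12.97, 12.26 and 11.51 in control livers. The groups did not overlap and the log2 change was 0.86 ± 0.30 (adjusted p = 0.379 in limma). Controls 3 and 4 were again the lowest, and the change was 0.39 without them.

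Cyp1a2, which oxidises caffeine and arylamines and is controlled by the aryl hydrocarbon receptor, had 13.06, 13.09 and 12.92 in OPP livers, against 12.82, 12.74, 11.91 and 11.62 in control livers. All OPP livers were above all controls, by 0.75 ± 0.29 on the log2 scale (adjusted p = 0.407 in limma), and by 0.25 without control livers 3 and 4. Cyp2a12, a testosterone hydroxylase, had log2 changes of 0.72 ± 0.24 and 0.75 ± 0.25 at its probes, and of 0.36 and 0.35 without those controls. Its probes ran close together, with 12.50, 12.93 and 12.83 in OPP livers, against 12.30, 12.50, 11.70 and 11.52 in control livers at probe b.

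**Figure D2:**
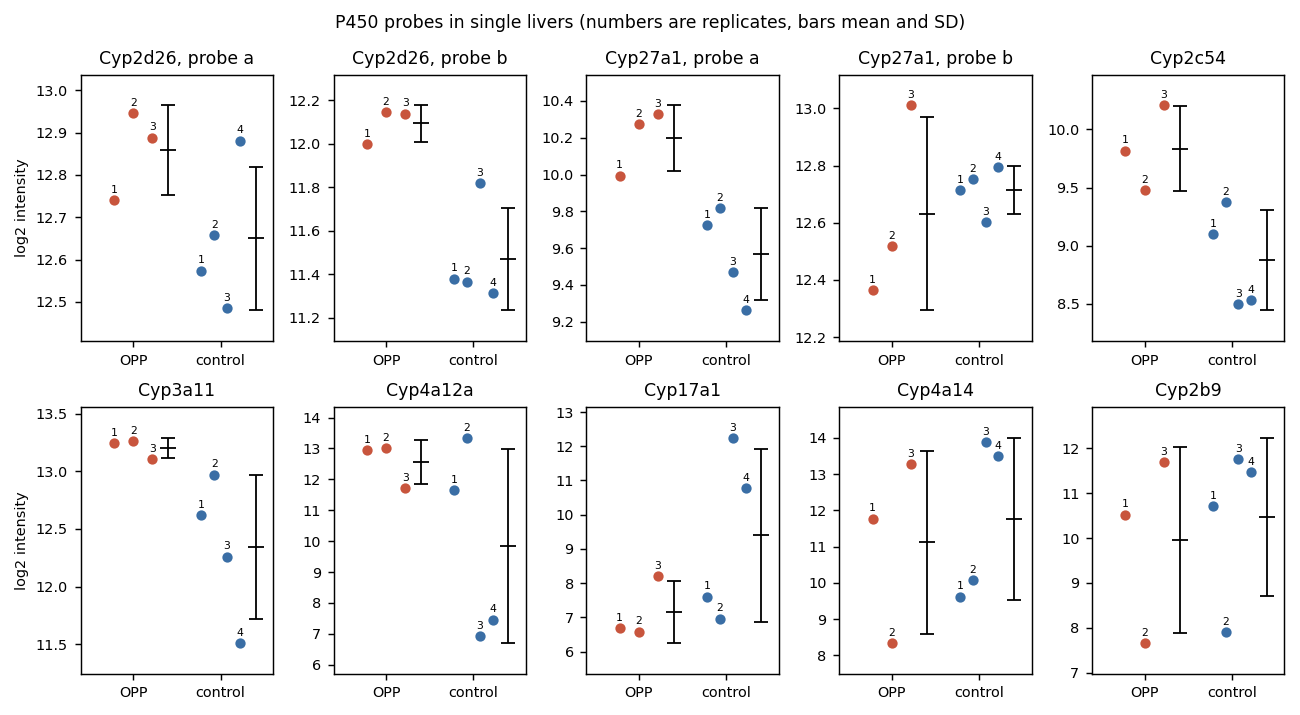
Points are log2 intensities of single livers, numbered by replicate, with OPP left of control in each panel and bars for mean and SD (n = 3 and n = 4). At Cyp2d26 probe b, Cyp27a1 probe a, Cyp2c54 and Cyp3a11 the OPP livers lie above the controls, while Cyp4a12a and Cyp17a1 separate control livers 3 and 4 from all other livers.

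Family 2 held most of the tested members, 23 probes of 19 genes, of which 16 were higher and 7 lower in OPP livers, with a median log2 change of 0.21. Once control livers 3 and 4 were left out, 13 were higher and 10 lower. Subfamily 2a was higher at all 6 of its probes, from 0.05 to 0.75, and at 5 of 6 without those livers, with medians of 0.47 over all livers and 0.17 without them. Cyp2a5 shows the spread between probes: its changes were 0.50 ± 0.34, 0.43 ± 0.37 and 0.05 ± 0.26, and the values of probe b were 12.97, 12.09 and 13.62 in OPP livers, against 12.97, 12.53, 12.55 and 11.80 in control livers. OPP liver 3 was the highest liver at each Cyp2a5 probe and at Cyp2a4, whose change was 0.39 ± 0.26. Probe c of Cyp2a5 turned to -0.15 without control livers 3 and 4.

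In subfamily 2b the variation between single livers was larger than the difference between the groups. Cyp2b9 had 10.52, 7.66 and 11.69 in OPP livers, against 10.71, 7.91, 11.77 and 11.48 in control livers. Cyp2b13 had 7.25, 5.56 and 10.01 in OPP livers, against 8.44, 5.40, 8.81 and 9.05 in control livers. In both genes OPP liver 2 and control liver 2 were the lowest, and the changes were -0.51 ± 1.10 and -0.32 ± 1.13. Both turned round without control livers 3 and 4, to 0.65 and 0.69, so no direction is given for either gene. Cyp2b10, the usual target of the constitutive androstane receptor, had 7.03, 6.86 and 8.56 in OPP livers, against 7.29, 6.76, 7.41 and 7.08 in control livers. Its change was 0.35 ± 0.40, and OPP liver 3 alone was high.

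Subfamily 2c, epoxygenases and hydroxylases of drugs and fatty acids, had 3 higher and 3 lower of 6 tested genes. Cyp2c50, which like Cyp2c54 oxidises fatty acids, had 9.96, 10.21 and 10.51 in OPP livers, against 9.50, 9.99, 8.74 and 9.71 in control livers. OPP liver 1 lay just under control liver 2, so the groups overlapped, with a change of 0.74 ± 0.28 (adjusted p = 0.404 in limma). Cyp2c70, the enzyme that makes muricholic acids in mice, had 13.59, 13.83 and 13.41 in OPP livers, against 13.85, 14.03, 13.34 and 13.92 in control livers, with overlapping groups and a change of -0.18 ± 0.18. Cyp2c37 and Cyp2c39 had changes of -0.18 ± 0.18 and -0.39 ± 0.46, and Cyp2c29 of 0.01 ± 0.32. Cyp2c39 turned to 0.28 and Cyp2c29 to -0.34 without control livers 3 and 4.

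Among the other genes of family 2, Cyp2e1, which oxidises ethanol and ketone bodies, showed no difference that these livers could detect. It had 15.56, 15.32 and 15.25 in OPP livers, against 15.53, 15.56, 15.21 and 15.17 in control livers. The groups overlapped fully, and 2 standard errors either side of the change of 0.01 spanned -0.28 to 0.30. The change was -0.16 without control livers 3 and 4. Cyp2f2, a naphthalene-oxidising enzyme of periportal hepatocytes and airway cells, had 13.14, 13.18 and 13.26 in OPP livers, against 13.10, 13.53, 12.03 and 12.26 in control livers. Its change was 0.47 ± 0.33, with control livers 3 and 4 the lowest, and -0.13 without them. Cyp2d9, a testosterone hydroxylase of male liver, had 14.66, 14.46 and 14.18 in OPP livers, against 14.32, 14.87, 12.28 and 13.43 in control livers and a change of 0.71 ± 0.52, against -0.14 without control livers 3 and 4. Cyp2d10, Cyp2d22 and Cyp2j9 had changes of 0.02, -0.17 and -0.21, and of -0.24, -0.34 and -0.69 without those controls.

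Family 3 beyond Cyp3a11 gave no call. Cyp3a13 had log2 changes of -0.37 ± 0.42 and -0.44 ± 0.41 at its tested probes, which turned to 0.18 and 0.14 without control livers 3 and 4. Its probe b had 10.30, 10.57 and 11.33 in OPP livers, against 10.99, 10.20, 11.47 and 12.05 in control livers, where control liver 4 was the highest and control liver 2 the lowest. Cyp3a25 had a change of 0.32 ± 0.46, or -0.07 without those livers. Cyp3a16, Cyp3a41a and Cyp3a44, copies known from female liver, passed the filter at none of their probes.

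Family 4 oxidises fatty acids and eicosanoids at the end of the chain, and Cyp4a10 and Cyp4a14 are standard targets of the receptor PPAR alpha. Cyp4a14 had 11.77, 8.34 and 13.26 in OPP livers, against 9.62, 10.07, 13.87 and 13.49 in control livers. OPP liver 2 was the lowest of all, while OPP liver 3 lay beside control livers 3 and 4, and the change was -0.64 ± 1.36 (adjusted p = 0.885 in limma). Cyp4a10 had a change of -0.13 ± 0.90 at probe a and of 0.02 ± 0.58 at probe b, with opposite signs. Probe b had 14.40, 12.78 and 15.37 in OPP livers, against 13.28, 13.89, 14.85 and 14.63 in control livers. OPP liver 3 was highest and OPP liver 2 lowest, as at probe a. Without control livers 3 and 4 the changes of Cyp4a14 and Cyp4a10 were 1.28, 0.93 and 0.57, none of them called.

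Cyp4a12a, the arachidonic acid hydroxylase of male mouse liver and kidney, had the widest range of all members. It had 12.94, 13.02 and 11.73 in OPP livers, against 11.65, 13.34, 6.93 and 7.46 in control livers. Control livers 3 and 4 lay more than 4 log2 units below each of the other 5 livers. The change of 2.72 ± 1.43 was not called (adjusted p = 0.522 in limma), and without those livers it was 0.08. Hsd3b5, a steroid dehydrogenase also known from male mouse liver and examined after its values were seen, had 12.49, 12.44 and 11.07 in OPP livers, against 12.62, 13.18, 5.68 and 5.69 in control livers. Its low values fell in the same pair of control livers.

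The remaining family 4 genes gave no call. Cyp4v3, a fatty acid hydroxylase, had 11.99, 11.93 and 11.83 in OPP livers, against 11.81, 12.03, 10.98 and 10.93 in control livers. Its change of 0.48 ± 0.27 became -0.01 without control livers 3 and 4. Cyp4b1, better known from lung, had a log2 change of 0.18 ± 0.16, and Cyp4f13, Cyp4f14 and Cyp4f15, which hydroxylate leukotrienes and related fatty acids, had changes of 0.05, 0.19 and -0.03. Those of the Cyp4f genes were -0.16, -0.25 and -0.05 without control livers 3 and 4.

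Bile acid synthesis was covered by 6 tested probes of 5 genes, with Cyp27a1 and Cyp3a11, described above, among them. Of these probes 3 were higher and 3 lower, with probe a of Cyp27a1, already counted above, the only call. Over all probes tested in liver 45.4% were higher and 2.92% were called. With control livers 3 and 4 left out, 2 of the 6 probes were higher and 4 lower, with no call. Their median log2 change was then -0.14, against 0.29 over all livers. Cyp7a1, the rate-limiting enzyme of the classic route, had 12.31, 10.41 and 11.64 in OPP livers, against 12.03, 12.24, 12.57 and 12.01 in control livers. OPP liver 2 was the lowest and the groups overlapped, with a change of -0.76 ± 0.38 (adjusted p = 0.504 in limma). With 1 liver left out the change ran from -1.18 to -0.23, at its lowest and called as lower without OPP liver 1 and nearest 0 without OPP liver 2. Cyp8b1, which commits the route to cholic acid, had 13.11, 12.02 and 13.45 in OPP livers, against 13.25, 13.02, 12.87 and 12.50 in control livers. Its change was -0.05 ± 0.32, and 2 standard errors either side spanned -0.70 to 0.59. It was -0.28 without control livers 3 and 4. Cyp7b1, the oxysterol hydroxylase of the alternative route and higher in male than female mice, had 11.36, 12.27 and 11.72 in OPP livers, against 11.55, 12.38, 9.54 and 11.18 in control livers. Control liver 3 was the lowest, and the change was 0.62 ± 0.57, or -0.18 without control livers 3 and 4.

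Cyp17a1, an enzyme of steroid hormone synthesis that is known as higher in female than male mouse liver, mirrored Cyp4a12a. It had 6.68, 6.58 and 8.21 in OPP livers, against 7.60, 6.96, 12.24 and 10.79 in control livers. Control livers 3 and 4 were the highest, by more than 2 log2 units, and it was detected in 2 of 3 OPP livers. The change was -2.24 ± 1.18 (adjusted p = 0.522 in limma) and -0.13 without control livers 3 and 4. Cyp26b1, a retinoic acid hydroxylase, had a log2 change of 0.02 ± 0.28, and of 0.46 without those livers.

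Control livers 3 and 4 both lay below all other livers at 15 of the 44 P450 probes (34.1%), beside 11.4% of the 6434 tested probes, and both above them at 7 (15.9%), beside 11.1%. These livers were picked out for their values, so the counts describe them and test nothing. The 15 were Cyp1a2, both Cyp2a12 probes, Cyp2c54, Cyp2d9, Cyp2d10, Cyp2e1, Cyp2f2, Cyp3a11, Cyp4a12a, Cyp4f13, Cyp4f14, Cyp4v3, Cyp7b1 and probe a of Cyp27a1. The 7 were Cyp2c37, Cyp2c39, both tested Cyp3a13 probes, Cyp4a14, Cyp17a1 and Cyp26b1. The tested probes of 4 genes known as higher in female liver and of 3 known as higher in male liver had median log2 changes of -0.41 and 0.71, with no probe called. Both medians turned round without control livers 3 and 4, to 0.39 and -0.14. The sums over acute phase and metallothionein genes, given above, were highest in control livers 3 and 4, but an OPP liver came next. Whether the levels of those genes go with any P450 value was not tested.

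By known regulator, 15 probes of targets of the constitutive androstane and pregnane X receptors were tested, of which 10 were higher and 5 lower. Cyp2c54, already counted above, was the only call, and the median log2 change was 0.32. Of all probes tested in liver 45.4% were higher and 2.92% were called. Without control livers 3 and 4, 11 of the 15 probes were higher and 4 lower, none called, and their median was 0.18. The 4 probes of PPAR alpha targets split into 2 higher and 2 lower without a call, around a median of -0.05, and all 4 were higher without control livers 3 and 4, around 0.75 and again without a call. The regulators themselves gave no call at 0.01 among 17 tested liver probes of 14 genes. At an unadjusted p under 0.05 in limma, 1 of these probes was higher and 3 were lower, beside 11.2% of all probes (6.37% higher). Cebpa, a factor that maintains hepatocyte genes, had a log2 change of 0.55 ± 0.22, Ppara of -0.61 ± 0.25 and Nr1h4, the bile acid receptor, of -0.40 ± 0.13 (adjusted p = 0.417, 0.419 and 0.363 in limma). They are examples chosen after their values were seen. Their values without control livers 3 and 4 are not given.

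The genes that supply electrons and haem gave no call among 9 tested liver probes of 8 genes. Alas1, which makes the first precursor of haem, had 14.78, 14.42 and 15.13 in OPP livers, against 14.91, 14.44, 14.78 and 14.96 in control livers, a change of 0.00 ± 0.19. Cyb5r3, the cytochrome b5 reductase, had changes of 0.14 ± 0.23 and 0.58 ± 0.27 at its probes. Por, the P450 reductase, has no probe under that symbol in the annotation used here.

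**Figure D3:**
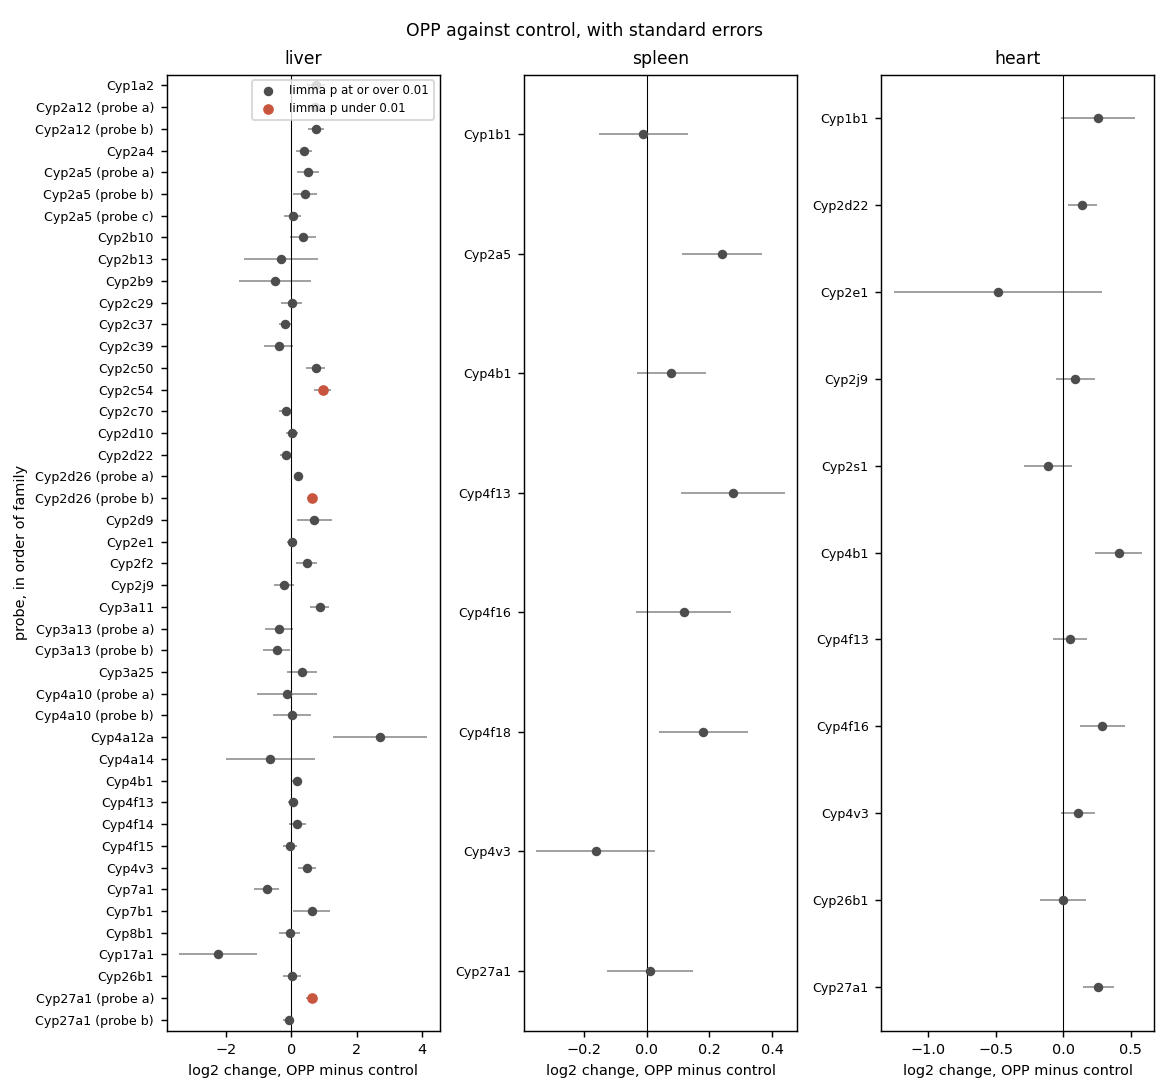
Points are log2 changes, OPP minus control, with standard errors, for each tested P450 probe in the liver, spleen and heart, in order of family and on a separate scale for each organ. Only 3 liver probes, in red, had an unadjusted p under 0.01, and the wide bars belong to Cyp2b9, Cyp2b13, Cyp4a10, Cyp4a12a, Cyp4a14 and Cyp17a1 in the liver and Cyp2e1 in the heart.

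In the spleen, 8 P450 genes were tested and none was called at an unadjusted p under 0.01 (1.69% of 8582 probes tested were, 1.17% as higher and 0.524% as lower) or under 0.05 (6.91% were, 4.53% as higher). Of the 8, 6 were higher in OPP spleens, beside 49.3% of all probes. The log2 changes ran from -0.16 to 0.27, with a median of 0.10 against 0.00 for all probes, and the smallest adjusted p of a member in limma was 0.818. Cyp1b1, which oxidises oestradiol and polycyclic hydrocarbons outside the liver, had 9.73, 9.62, 9.85 and 9.70 in OPP spleens, against 9.75, 10.15, 9.65 and 9.40 in control spleens. The groups overlapped, with a change of -0.01 ± 0.14 whose span of 2 standard errors was -0.29 to 0.27.

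Cyp4f18, the leukotriene hydroxylase of mouse neutrophils, had 7.99, 7.97, 8.19 and 8.18 in OPP spleens, against 8.09, 7.95, 7.49 and 8.08 in control spleens. Its change was 0.18 ± 0.14 (adjusted p = 0.921 in limma). All 16 tested probes of neutrophil markers were higher in OPP spleens, 1 of them with an unadjusted p under 0.01 and 14 under 0.05, with a median log2 change of 1.06. Their summed linear intensity ran from 105498 to 178299 in OPP spleens and from 39541 to 125973 in control spleens, all 14 marker genes on the array being detected. Control spleen 3 was the lowest for Cyp4f18 and the highest control for those markers, and the part of neutrophils in the Cyp4f18 value was not tested.

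The other spleen members gave no call. Cyp2a5 was detected at its probe a alone, with 6.49, 6.31, 6.25 and 6.28 in OPP spleens, against 6.24, 5.84, 6.17 and 6.11 in control spleens. This was the 1 member whose groups did not overlap (3.6% of all probes did not, 2.16% as higher), with a change of 0.24 ± 0.13 (adjusted p = 0.818 in limma). Cyp4f13 and Cyp4f16 had changes of 0.27 ± 0.17 and 0.12 ± 0.15, Cyp4b1 of 0.08 ± 0.11, Cyp4v3 of -0.16 ± 0.19 and Cyp27a1 of 0.01 ± 0.14.

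In the heart, 11 P450 genes were tested and none was called at 0.01, beside 4.61% of 9172 probes tested (1.91% higher and 2.7% lower), and the groups overlapped at all 11, beside 7.97% of all probes that did not overlap (3.46% higher). At an unadjusted p under 0.05 there were 2, Cyp27a1 and Cyp4b1, both higher, beside 14.1% of all probes (6.21% higher). Of the 11, 8 were higher in OPP hearts, beside 51.1% of all probes, and the median log2 change was 0.11, against 0.00 over all probes. Cyp4b1 had 7.65, 7.78, 8.08 and 8.52 in OPP hearts, against 7.58, 7.49, 7.87 and 7.45 in control hearts. OPP heart 4 was the highest, the groups overlapped, and the change was 0.41 ± 0.17 (adjusted p = 0.330 in limma). Cyp27a1 at probe b had 7.60, 7.32, 7.74 and 7.55 in OPP hearts, against 7.49, 7.32, 7.31 and 7.06 in control hearts. OPP heart 2 lay within the control values, and the change was 0.26 ± 0.12 (adjusted p = 0.350 in limma).

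Cyp2e1 was by far the most variable member in the heart. It had 7.89, 10.17, 8.77 and 5.96 in OPP hearts, against 7.46, 9.64, 9.51 and 8.13 in control hearts. The highest and the lowest heart were both OPP hearts, and the change was -0.48 ± 0.77. Adipoq, the adipocyte hormone adiponectin, had 7.39, 9.63, 7.69 and 5.49 in OPP hearts, against 7.08, 9.20, 8.84 and 7.97 in control hearts. Both genes were highest in OPP heart 2, then in control hearts 2 and 3, and lowest in OPP heart 4. The 4 tested adipocyte marker probes summed to between 259 and 4032 linear units in OPP hearts and between 851 and 3346 in control hearts, while Lep, Plin1 and Retn were not detected in any heart. The part of fat tissue in the Cyp2e1 level was not tested.

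**Figure D4:**
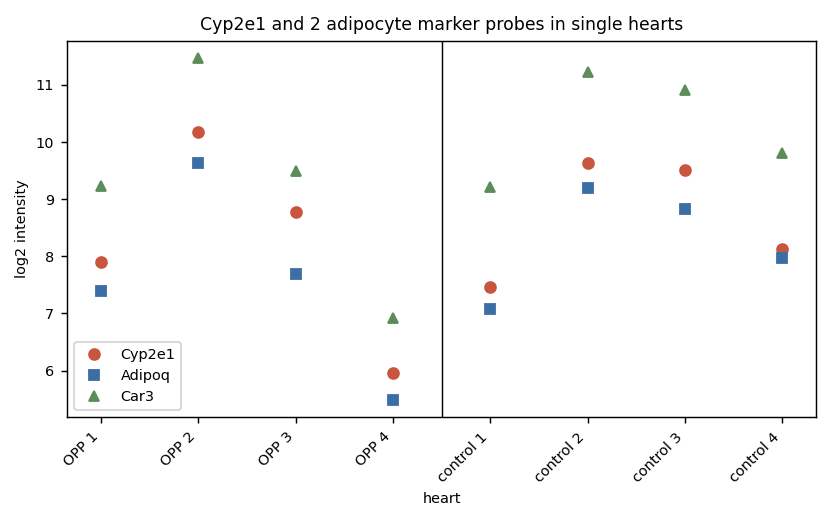
Log2 intensity of Cyp2e1 and of the adipocyte genes Adipoq and Car3 (1 of its probes) in each heart, OPP hearts to the left of control hearts. Points of a heart stand above each other, and all 3 genes are highest in OPP heart 2 and lowest in OPP heart 4.

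The other heart members gave no call either. Cyp1b1 ranged over 7.27 to 8.73 in OPP hearts, against 7.39 to 8.14 in control hearts, and OPP heart 4 and control heart 4 were the lowest. Its change was 0.26 ± 0.27. Cyp2d22, Cyp2j9, Cyp2s1, Cyp4f13, Cyp4f16, Cyp4v3 and Cyp26b1 had log2 changes of 0.14, 0.09, -0.11, 0.05, 0.29, 0.11 and -0.0043. Cyp4f16 passed the filter through the OPP hearts, where it was detected in 4 of 4, against 1 of 4 control hearts.

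Genes that serve the P450 enzymes or control their genes were tested in the heart as well. Of 9 tested partner and haem probes, 1 was higher and 2 lower at an unadjusted p under 0.01, beside 1.91% and 2.7% of all probes tested in the heart. Haem oxygenase Hmox1, which breaks haem down, had 7.89, 8.13, 8.77 and 8.30 in OPP hearts, against 7.92, 7.70, 7.73 and 7.71 in control hearts, a change of 0.51 ± 0.16 (adjusted p = 0.204 in limma). Alas1 had 11.99, 11.97, 11.51 and 11.71 in OPP hearts, against 12.16, 12.03, 12.33 and 12.49 in control hearts, a change of -0.46 ± 0.12 (adjusted p = 0.160 in limma). The lowest control heart for Alas1 lay above the highest OPP heart. The epoxide hydrolase Ephx1, which takes up products of P450 enzymes, had a change of -0.35 ± 0.10. Among 7 tested regulators, Cebpb, an inflammatory transcription factor, and Nr1h3, the oxysterol receptor LXR alpha, were higher in OPP hearts, with changes of 0.53 ± 0.13 and 0.36 ± 0.11. The clock-driven factor Dbp was lower, with a change of -0.55 ± 0.11 (adjusted p = 0.132 in limma). These 3 calls of 7 stood beside the same 4.61% of all probes. Of 8 tested acute phase and metallothionein probes 7 were higher in OPP hearts, 2 of them called, around a median log2 change of 0.84, and their sums ran from 11053 to 20884 in OPP hearts and from 6540 to 10161 in control hearts, with Saa1, Saa2 and Crp among the 9 genes detected in no heart. All 7 tested neutrophil marker probes were also higher, none of them called, around a median of 0.47, with sums from 397 to 2579 in OPP hearts and from 297 to 1683 in control hearts and with Elane, Mpo and Ngp among the 6 genes detected in no heart. The part of either list in the calls of Hmox1, Alas1, Cebpb and the others was not tested. In the spleen 1 of 6 tested regulators was called (beside 1.69% of all probes), Nfil3, with a change of 0.51 ± 0.15, and none of the partner genes.

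The second question was how the members differ between organs, for which all 23 arrays were normalised together, so that levels differ somewhat from those above. The organs of a group may come in part from the same mice, which the labels do not tie to arrays, and the fit takes all arrays as independent. In control mice 43 of 47 tested P450 probes were called higher in liver than spleen (adjusted p under 0.05 and at least 2-fold), beside 26.4% of all tested probes, and 4 lower, beside 35.2%. Against heart, 42 of 46 were higher in liver, beside 22.3%, and 1 lower, beside 33.1%. Most of these probes, 39 against spleen and 34 against heart, were detected on no control array of one organ and were higher in the other. They passed the filter through the organ where they are high, so the counts describe which genes are detected. Against heart, Cyp2s1 was also undetected in control livers, but liver minus heart was -0.0094 on the log2 scale and no bound is given. For such probes a bound is given, which sets the mean of the detecting organ against the other organ's mean of, per array, the higher of the lowest signal among detected probes and the probe's own.

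Against spleen, the liver was at least 260-fold higher for Cyp4a10 at probe b, 203-fold for Cyp2c70, 185-fold for Cyp2d9 and 166-fold for Cyp2c37. The bound was 101-fold for Cyp8b1, 66.2-fold for Cyp3a11 and 59.1-fold for Cyp7a1. Cyp2e1 had a mean of 15.06 ± 0.14 in control livers, 5.97 ± 0.71 in control spleens, where 2 of 4 arrays detected it, and 8.91 ± 1.10 in control hearts (SD, n = 4 each). Against heart, the bounds were 233-fold for Cyp2c70 and 212-fold for Cyp2d9.

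Of the 4 genes detected in all 3 organs, Cyp27a1, Cyp4v3 and Cyp4f13 were higher in liver than in either other organ. Cyp27a1 at probe b had 12.40, 12.45, 12.29 and 12.50 in control livers, against 7.01, 7.35, 6.91 and 7.32 in control spleens and 7.69, 7.53, 7.51 and 7.27 in control hearts. The liver was higher by 5.26 ± 0.14 than spleen and by 4.91 ± 0.14 than heart on the log2 scale. Heart minus spleen was 0.35 ± 0.14, under the 2-fold limit. Cyp4v3 and Cyp4f13 were likewise higher in liver, by 4.26 ± 0.20 and 4.06 ± 0.14 against spleen and by 4.85 ± 0.20 and 4.50 ± 0.14 against heart, and for both the heart lay below the spleen by less than 2-fold.

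A few P450 genes were lower in liver. Cyp4b1 had 8.14, 7.88, 8.04 and 7.86 in control livers, against 9.37, 9.82, 9.51 and 9.79 in control spleens. Liver minus spleen was -1.64 ± 0.15 (limma, adjusted p = 1.8e-09), while liver minus heart was 0.18 ± 0.15 and not called. Cyp1b1 was not detected in livers, and was at least 7.27-fold lower there than in spleen and at least 2.45-fold lower than in heart. Cyp4f18 and Cyp4f16 were not detected in control livers, with bounds of 1.88-fold and 1.08-fold against spleen.

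Between heart and spleen, 8 of 13 tested probes were called, 4 higher in heart (30.8%), beside 26% of all tested probes, and 4 lower, beside 23.8%. Higher in heart were Cyp2e1 by 2.94 ± 0.60, Cyp2d22 by 2.05 ± 0.14, Cyp26b1 by 2.00 ± 0.21, and Cyp2j9, at least 1.43-fold. Lower in heart were Cyp4b1, Cyp1b1 and Cyp4f16, with heart minus spleen at -1.82 ± 0.15, -1.57 ± 0.23 and -1.21 ± 0.14 on the log2 scale, and Cyp4f18, which no control heart detected, by at least 3.80-fold. Without control livers 3 and 4, the calls between control liver and the other organs were as before except that Cyp2b13 was lost in both, and no difference changed its sign.

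**Figure D5:**
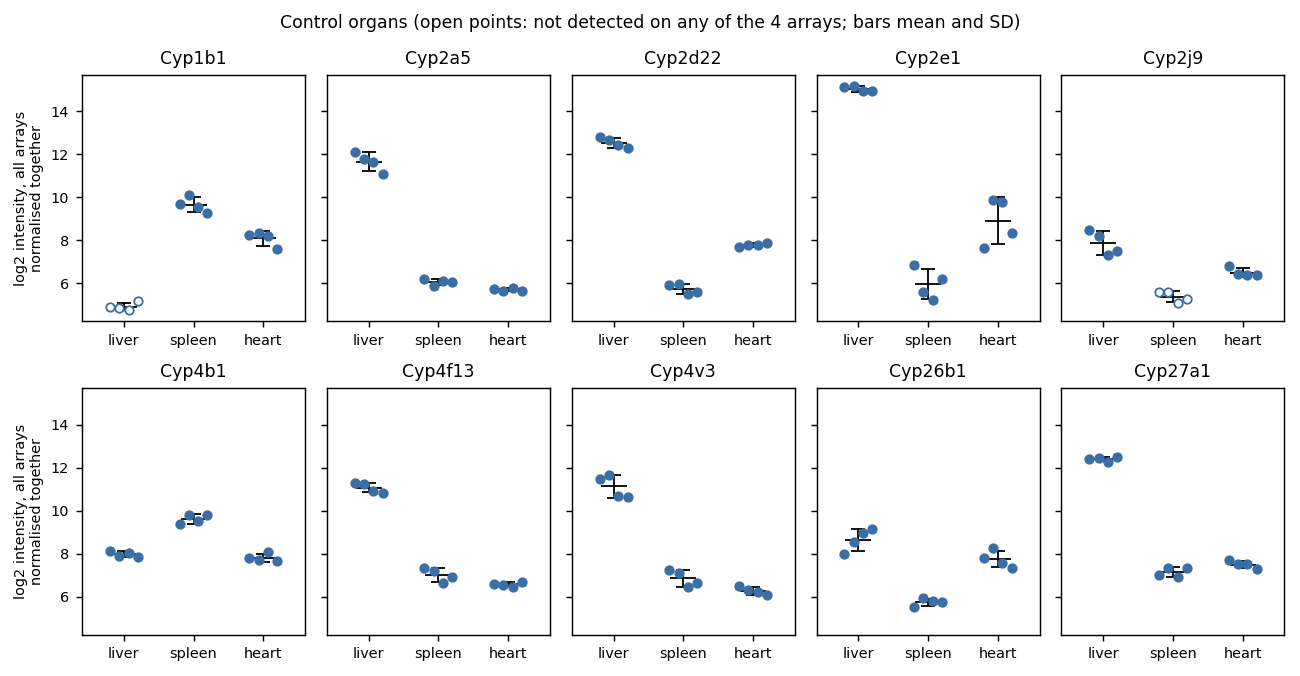
Log2 intensities, all arrays normalised together, of the P450 probes tested in more than 1 organ except Cyp4f16, in 4 control livers, spleens and hearts, with bars for mean and SD; open points stand for groups in which no array detected the probe. Levels are highest in liver for Cyp2a5, Cyp2d22, Cyp2e1, Cyp2j9, Cyp4f13, Cyp4v3 and Cyp27a1, and highest in spleen for Cyp1b1 and Cyp4b1. The mean of Cyp26b1 is also highest in liver, by 1.86-fold over heart and not called.

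The third question was whether the response to OPP differs between organs. No P450 probe passed an adjusted p of 0.05 for a difference of responses between liver and spleen (5 tested, beside 0.133% of all probes called), liver and heart (8 tested, beside 0.0716%), or spleen and heart (6 tested, beside 0%). At an unadjusted p under 0.05 there was 1, Cyp4v3 between liver and spleen (15.4% of all probes passed that, and 13.3% between liver and heart and 2.76% between spleen and heart), with a response of 0.44 in liver and -0.16 in spleen in the joint fit and a difference of 0.60 ± 0.29 (limma, adjusted p = 0.318). These tests too take organs of 1 mouse as independent.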

How the data were processed

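RNA of mouse liver, spleen and heart was hybridised to single-colour Illumina bead arrays. The deposited files give, per the labels and the methods, the authors' raw intensity of each probe with a detection p-value from negative control beads, and an intensity table normalised by the authors; their notes name BeadStudio 1.5.1.3. The authors' error model and its test could not be rebuilt from these values, and no value of it was used.

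Raw intensities were corrected with limma 3.58.1 in R 4.3.3 (nec from the detection p, offset 16), quantile normalised within an organ and put on the log2 scale. Probes were kept where 3 or more arrays of either group detected them (p below 0.01). OPP was compared with control in each organ by lmFit and eBayes with a variance trend, over all probes passing, with calls at an unadjusted p under 0.01 and after Benjamini-Hochberg adjustment at 0.05. Organs and the difference of responses between organs were tested in 1 fit of 23 arrays, taken as independent although organs may share mice. Organ differences were called at an adjusted p under 0.05 and at least 2-fold, and differences of responses at an adjusted p under 0.05 alone. MASS 7.3.60.0.1 served the rank invariant alternative. The procedure was tested on simulated data with known changes.

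Detection stands in for depth, and signal near background limits precision. No array was a copy of another. Gene names came from the platform annotation, which gave 19398 of 24048 probes a single symbol, and start windows from RefSeq (GRCm38.p6). Genome positions of the probes and the build behind the array design are not given in the sources used here. Named were members called in any organ, members the study chose on these samples, genes whose probes differ, reference genes of each route, members tested in spleen or heart, the largest organ differences, and partner or regulator genes called. Some further P450 genes are given as examples of their family, and some partner or regulator genes that were not called as examples of their list. These examples were chosen after their values were seen, as were 4 added lists and the fits without control livers 3 and 4. The members and lists were chosen with earlier results of these data known. Alternatives were the authors' normalised values, 3 other scalings or corrections, 2 filters, Student's t-test, array weights, 1 fit of all organs, a replicate block and leaving out each array. The methods name the t-test as their general test, but the study called its array genes with the error model.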

Additional observations from a re-analysis of the deposited data

Results flagged for a closer look

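In 82 groups of 4 arrays examined for the members, 3 held a sample far from the other samples of its group, where chance alone gives about 1 in 20. Cyp2b13 had a log2 intensity of 5.40 in control liver 2, against 8.44 to 9.05 in the other control livers. The low value stood beside 5.56 in OPP liver 2. Cyp2d26 at probe b had 11.82 in control liver 3, against 11.31 to 11.38 in the other control livers, which was the nearest that any control came to the OPP livers. Cyp2j9 had 6.60 in control heart 1, against 6.14 to 6.21 in the other control hearts.

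Cyp4v3 had log2 changes of 0.48 in liver and -0.16 in spleen, and each OPP liver lay above the mean of its controls and each OPP spleen below. The difference of responses in the joint fit was 0.60 ± 0.29, with an adjusted p of 0.318 in limma, and the liver change was -0.01 without control livers 3 and 4.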

How the results depend on the processing

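The count of 3 P450 probes called in liver held with the authors' normalised values, rank invariant normalisation, no background correction and the stricter filter. Beside it 3.02% to 3.42% of all probes were called in those fits. The P450 count was 0 with median scaling (beside 0.389% of all probes) and 6 of 81 members with no filter on dim probes (beside 1.14%). With Student's t-test it was 1 (beside 2.44%), with 3 at an unadjusted p under 0.05 and 0 after adjustment. It was 1 with array weights (beside 4.93%), 1 without control livers 3 and 4 (beside 2.21%) and 11 with all organs in 1 fit (beside 11.6%). With 1 liver left out at a time it ran from 1 (without control liver 3 or 4, or OPP liver 2 or 3) to 8 (without control liver 2). Of all probes 1.09% to 2.58% were called in the fits with 1 P450 call, and 3.17% in the fit with 8. The median change of the members ran from 0.024 to 0.378, highest without OPP liver 2. The replicate block gave 1 call in liver, beside 1.65% of all probes, and no P450 call in spleen or heart. Same-numbered livers correlated by only 0.02 to 0.07, spleens by -0.29 to 0.32 and hearts by 0.01 to 0.45, so the numbers were not taken to pair samples. In the spleen the count of 0 became 1 of 81 members with no filter, beside 1.18% of all probes. The median change in heart was -0.0082 with no filter and ran from 0.0661 to 0.232 with 1 heart left out, highest without OPP heart 4. Median scaling moved the heart median over all probes by -0.12, with the members at -0.0027. Over all probes, 188 liver calls became 25 with median scaling, 743 with all organs in 1 fit, 106 with the block and 317 with array weights, and 423 heart calls became 1061 with median scaling. Spleen calls moved from 145 to 268 with array weights and 282 with no filter. Among values of single probes under an alternative, 1094 stayed on their side of the threshold, 18 passed it newly and 20 lost it, none with a reversed sign among calls. The cause of these shifts was not tested, except that leaving out samples or probes alters what enters the fit. Where signals lie near background, changes are understated.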

Other observations

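Some members were detected on a few arrays without passing the filter, and they were not tested. Cyp2s1, known from epithelia of lung and gut, was detected in 2 of 3 OPP livers and 0 of 4 control livers, with mean log2 intensities of 6.73 in OPP livers and 6.45 in control livers. Cyp2g1, known from the olfactory mucosa, was detected in 2 OPP and 2 control livers, with means of 7.22 in OPP livers and 6.89 in control livers. Cyp2e1 was detected in 0 OPP spleens and 2 control spleens, with means of 5.32 in OPP spleens and 5.98 in control spleens. Cyp27a1 at probe a was detected in 2 OPP and 2 control hearts, with means of 5.60 in OPP hearts and 5.56 in control hearts.

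Further targets of PPAR alpha outside the P450 genes, a list drawn up after their values were seen, had 13 tested probes in liver, of which 9 were higher in OPP livers and 4 lower, around a median log2 change of 0.17 with 1 call at an unadjusted p under 0.01. Periportal hepatocyte genes had 12 tested probes, of which 8 were lower and 4 higher, around a median of -0.16 with 1 call. Pericentral genes, some of them P450 genes, had 9 tested probes, 5 of them lower and 4 higher, around -0.08. Their 1 call was probe a of Cyp27a1. Of all 6434 probes tested in liver, 2.92% were called at that threshold and 45.4% were higher in OPP livers. Values without control livers 3 and 4 are not given for these lists.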
